A study of Mus musculus with 23 samples.

Results

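The comparison described here is that of mouse melanoma tumors injected with norcantharidin (NCTD_IT) with tumors injected with the vehicle alone (CTRL_IT). It rests on 8 of the 23 tumors whose RNA was sequenced, 4 in each of both groups, and on the genes outside chromosomes X and Y. The table lists 52536 such genes, of which 12066 had enough reads to be tested. The tumors were grown from B16-F1 cells, a mouse melanoma line that came from another inbred strain than its host, placed under the skin of the right flank of DBA/2J mice aged 6 to 8 weeks. Treatment began on day 6 and all tumors were collected on day 14. CTRL_IT received DMSO, the vehicle of all intratumoral groups, NCTD_IT received norcantharidin at 3 mg/kg, and MIX_IT received norcantharidin at 3 mg/kg together with pentoxifylline (PTX) at 60 mg/kg. In PTX_IT pentoxifylline was given alone at 60 mg/kg, also into the tumor. By the peritoneal route, with saline as the vehicle in place of DMSO, CTRL_IP received saline and NCTD_IP norcantharidin at 3 mg/kg. The labels name the route of treatment as the batch.

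Norcantharidin is the demethylated form of cantharidin, the blister agent of blister beetles, and is known as an inhibitor of the serine and threonine phosphatases PP2A and PP1. These phosphatases remove phosphate groups that kinases of the MAPK and PI3K pathways, of the cell cycle and of the splicing machinery put on their targets. Injection into a tumor exposes melanoma cells and the host cells around them, such as fibroblasts, vessels and leukocytes, to the agent, and bulk RNA holds the transcripts of all of them. A lower level of a transcript in bulk RNA can come from fewer cells of a type or from less of the transcript per cell, and these cannot be told apart here.

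Between 3523406 and 4607703 reads were counted on genes in the CTRL_IT tumors and between 2861578 and 5711770 in the NCTD_IT tumors. In CPM, the counts scaled to a common library total, the floor of 3 counts lay between 0.525 and 1.05 in these tumors, a limit that covers counting error only. Within each group the tumors were unlike beyond counting error (chi-square over its degrees of freedom, 8.80 to 36.0), so no library was counted as a copy of another. Melanocyte genes marked the tumors as labelled, since the summed level of 8 melanoma markers was 27363 to 32494 CPM in CTRL_IT and 20041 to 27647 CPM in NCTD_IT. The groups also differed in genes of the sex chromosomes. Xist, the RNA that coats an inactive X chromosome, had 0, 1, 0 and 2 counts in CTRL_IT and 32, 44, 15 and 51 in NCTD_IT, and the Y-linked gene Ddx3y had 4, 41, 24 and 14 against 0, 1, 0 and 0. The study's methods describe the treatment groups as matched for sex, the labels used here give no sex, and host sex and treatment cannot be told apart within this comparison. MIX_IT tumors, with 0 Xist counts in all 4, resembled CTRL_IT in these genes, while PTX_IT, with 33, 36 and 5 Xist counts, resembled NCTD_IT. Values of MIX_IT are therefore set beside those of NCTD_IT, although both are compared with the same CTRL_IT tumors.

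Of the 12066 genes, 113 were higher and 54 were lower in NCTD_IT at a Benjamini-Hochberg adjusted p below 0.05 in edgeR's quasi-likelihood test. These are 0.937% and 0.448% of the genes tested, or 1.38% together. The median change of the genes that rose was 1.09 on the log2 scale and that of the genes that fell was -0.997, against 0.03 over all genes tested. At least 2-fold changes were seen in 65 of the higher and 27 of the lower genes, and at least 4-fold changes in 21 and 2. The levels of the 4 NCTD_IT tumors all lay above those of the 4 CTRL_IT tumors in 107 of the 113 genes that rose. They all lay below in 54 of 54 that fell. Over all genes tested, 7.8% and 8.95% were separated in this way. Called genes were chosen for a difference between these same tumors, so their separation is largely built in and gives no further support. At an unadjusted p below 0.05, 1411 genes were higher (11.7%) and 1204 were lower (9.98%). The smallest adjusted p was 0.028 and 88 of the 167 called genes had an adjusted p of at least 0.04, and the number of calls moved strongly with single tumors. No gene passed in edgeR without CTRL_IT 9, CTRL_IT 11, CTRL_IT 12 or NCTD_IT 18, where 1894, 2140, 1981 and 2024 genes had an unadjusted p below 0.05. A single gene passed without NCTD_IT 17, 68 passed without NCTD_IT 19, 122 without NCTD_IT 20 and 185 without CTRL_IT 10. With the Xist level as a covariate 0 genes passed in edgeR and 671 had an unadjusted p below 0.05. The Xist level splits CTRL_IT from NCTD_IT, so a loss of calls in this fit is largely built in. DESeq2 on the 8 tumors called 1335 genes, and it called 163 of the 167 in the same direction while it gave no adjusted p to the other 4.

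**Figure D1:**
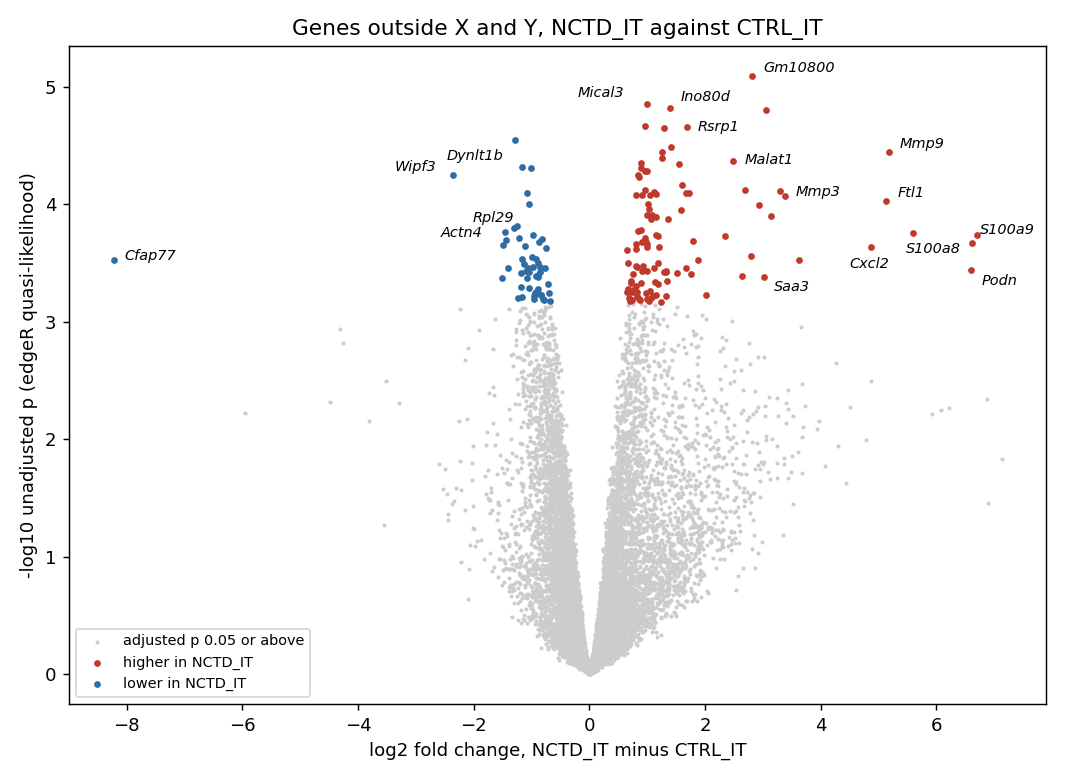
Each point is a gene outside X and Y, placed by its log2 fold change between NCTD_IT and CTRL_IT (x axis) and the -log10 of its unadjusted edgeR p (y axis). The 113 genes that rose (red) include several past 4-fold, such as Mmp9, Mmp3 and the satellite model Gm10800, while the 54 that fell (blue) lie mostly near a change of -0.997, apart from Wipf3 and from Cfap77, whose position is not a measured fold because it had no count in NCTD_IT.

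The gene with the smallest p was Gm10800, a gene model that consists of satellite DNA. Most satellite repeats are long arrays of short units next to the centromeres, packed in heterochromatin and usually transcribed at a low level. Gm10800 lies at 98496892 to 98497646 of chromosome 2, and whether it is part of such an array was not tested. The unit of Gm10800 carries this finding and is therefore shown, from the strand of the gene (GRCm39, chr2:98497400-98497633, minus strand), with the 72 bases in capitals that 6 of the models on the list hold in exactly the same letters.
Gm10800: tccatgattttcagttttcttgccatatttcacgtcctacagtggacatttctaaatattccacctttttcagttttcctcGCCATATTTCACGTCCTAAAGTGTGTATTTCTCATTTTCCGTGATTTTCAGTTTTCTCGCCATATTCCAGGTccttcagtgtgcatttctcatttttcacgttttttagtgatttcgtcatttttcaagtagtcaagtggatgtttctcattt
These 6 models are Gm10800, Gm10722, Gm10801, Gm11168, Gm10717 and Gm10718, and each held the run once. Shifted by 234 bases against itself, Gm10800 had the same base at 67.2% of positions and Gm10722 at 82.5%. Between 50.1% and 60.9% of the 20-base words of Gm10800 occurred in each of the other 5, so reads from the shared stretches cannot be assigned to 1 model, and the 6 are not independent measurements. Gm10800 had 263, 234, 379 and 205 CPM in CTRL_IT and 1466, 2262, 2811 and 1096 CPM in NCTD_IT. All 4 treated tumors were far above all 4 controls, and the change was 2.82 on the log2 scale (SE 0.44, edgeR adjusted p = 0.028), or 7.07-fold.

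Of 17 models on the satellite list 7 passed the filter on low counts and 6 of these passed the test. For Gm10718 the filter was met through the tumors where it was high, so this count is a description. Gm10722 (chromosome 9, 3000922 to 3002330) had 8.34, 7.89, 13.4 and 4.25 CPM in CTRL_IT and 51.4, 86.5, 104 and 43.9 in NCTD_IT, a change of 3.06 (SE 0.51, edgeR adjusted p = 0.028). Gm10801 changed by 2.69 and Gm11168 by 2.34. Gm10718 had 0.253, 0.438, 0 and 0.851 CPM in CTRL_IT, at or under the floor in all 4 tumors, and 2.96, 9.97, 5.55 and 1.84 CPM in NCTD_IT (edgeR adjusted p = 0.0414), and no fold is given for it. Gm10717 had a value of 2.40 (edgeR adjusted p = 0.0922), which did not pass. Gm37274, listed with them by its name, shared no 20-base word with the other 6 and rose by 3.13, from 2.02, 4.82, 4.05 and 4.82 CPM to 27.9, 65.4, 33.7 and 12.3 CPM. Gm10800 had 339.8, 485, 997 and 214 CPM in MIX_IT, and the difference between MIX_IT and NCTD_IT was -1.91 (SE 0.43, unadjusted p = 0.000365, edgeR adjusted p = 0.505), which did not pass. The tumors of PTX_IT, which received no norcantharidin and had 33, 36 and 5 Xist counts, had 1211, 1819.9 and 699 CPM of Gm10800, and the value against the same controls was 2.20 (SE 0.45, unadjusted p = 0.000154, edgeR adjusted p = 0.551). Gm10722 had a value of 2.54 in PTX_IT (SE 0.52, edgeR adjusted p = 0.551). Neither value passed, and all 3 PTX_IT tumors lay above all 4 controls in both models. By the peritoneal route Gm10800 had a value of 3.24 (SE 1.28, unadjusted p = 0.0309, n = 2 tumors in each group, edgeR adjusted p = 0.999), which did not pass.

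Nuclear RNAs and splicing factors were the second group with several high members. Malat1 and Neat1 are long noncoding RNAs that stay in the nucleus, Malat1 in the speckles that store splicing factors and Neat1 as the scaffold of paraspeckles, and they lie side by side on chromosome 19. Malat1 (GRCm39, 5845717 to 5852704, minus strand) had 76.1, 88.6, 76.7 and 96.7 CPM in CTRL_IT and 402, 691, 280.1 and 527 CPM in NCTD_IT. The groups did not overlap, and Malat1 rose by 2.49 on the log2 scale (SE 0.45, edgeR adjusted p = 0.028), or 5.62-fold. Neat1 (5874736 to 5895898, minus strand) had 164, 253, 189 and 234 CPM in CTRL_IT and 409.7, 801, 546 and 694 CPM in NCTD_IT and rose by 1.54 (SE 0.28, edgeR adjusted p = 0.028). Rsrp1, which encodes an arginine- and serine-rich protein of the speckles, had 186, 221, 222 and 219.8 CPM in CTRL_IT and 691, 855, 540.0 and 655 CPM in NCTD_IT, a rise of 1.69 (SE 0.29, edgeR adjusted p = 0.028). In MIX_IT Malat1 had 156, 192, 499 and 272 CPM, which lay between both groups or within the range of NCTD_IT.

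Of the 39 members of this list that were tested, 3 rose, none fell and the median change was 0.43, against 0.03 over all genes. A further look at the unadjusted p below 0.05 found 19 members higher and 1 lower, and 33 of the 39 had a value above 0. With the Xist level as a covariate Malat1 changed by -0.30 and Neat1 by -0.29, neither of which passed. The Xist level splits CTRL_IT from NCTD_IT, so this fit cannot tell host sex and treatment apart. Nuclear ribosomal RNA moved with this group, taking 0.862% to 1.12% of the counts in CTRL_IT and 1.35% to 1.95% in NCTD_IT, and its part in these results was not tested. Malat1 ends in a triple helix in place of a poly(A) tail, while the libraries were primed on poly(A).

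Among genes of chromatin a few passed, with smaller changes. Ino80d (chromosome 1, 62997577 to 63153849), which encodes a subunit of the INO80 chromatin remodelling complex, had 16.4, 24.6, 27.3 and 23.5 CPM in CTRL_IT and 57.8, 66.9, 58.3 and 58.1 CPM in NCTD_IT and rose by 1.39 (SE 0.23, edgeR adjusted p = 0.028). Bahcc1, a chromatin reader with a BAH domain, had 34.1, 28.1, 29.1 and 26.4 CPM in CTRL_IT and 65.8, 52.5, 53.1 and 57.3 CPM in NCTD_IT and rose by 0.96 (SE 0.16, edgeR adjusted p = 0.028). Neither gene had a treated tumor within the range of the controls. A list of remodelling and histone modifying enzymes, which holds neither Ino80d nor Bahcc1, had 62 tested members, of which 2 rose and none fell. These were the histone deacetylase gene Hdac4, with a change of 1.11, and Ep400, an ATPase of the TIP60 complex, with a change of 0.86. The median of the list was 0.28, with 20 members below 0, and 18 members were higher and 5 lower at an unadjusted p below 0.05.

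Matrix proteases held some of the steepest changes. Mmp9 (chromosome 2, 164782700 to 164797770) encodes gelatinase B, which degrades denatured collagen and the collagen of basement membranes and is made by leukocytes as well as tumor cells. It had 0.505, 0.219, 0.759 and 0.284 CPM in CTRL_IT, at or under the floor in all 4 tumors, and 8.01, 33.1, 21.5 and 5.78 CPM in NCTD_IT. The lowest treated tumor was well above the highest control. The fitted change, which rests on a few reads in the controls, was 5.18 (SE 0.92, edgeR adjusted p = 0.028). The filter on low counts was met through treated tumors where Mmp9 was high, so its call and its place in the list count are a description. MIX_IT had 12.8, 4.00, 34.6 and 24.5 CPM. Mmp3, or stromelysin 1, which cleaves matrix proteins and activates other proteases, had 0.505, 2.19, 4.05 and 2.55 CPM in CTRL_IT and 20.2, 43.98, 24.6 and 8.93 CPM in NCTD_IT and rose by 3.38 (SE 0.65, edgeR adjusted p = 0.028). Mmp14, the membrane-bound protease that activates gelatinase A, went the other way, with 378, 324, 352 and 268 CPM in CTRL_IT and 181, 189, 123 and 207 CPM in NCTD_IT, and fell by 0.92 on the log2 scale (SE 0.21, edgeR adjusted p = 0.0482). Of the 23 tested genes of proteases, their inhibitors and plasminogen activators, 2 rose, 1 fell and the median was 0.21.

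The promoter of Mmp3 is shown as the regulatory sequence of a gene that rose steeply. It is the 250 bases before the RefSeq start (GRCm38.p6, chr9:7445572-7445821, plus strand), with a match to the AP-1 motif TGANTCA in capitals, which begins 46 bases before the start.
Mmp3: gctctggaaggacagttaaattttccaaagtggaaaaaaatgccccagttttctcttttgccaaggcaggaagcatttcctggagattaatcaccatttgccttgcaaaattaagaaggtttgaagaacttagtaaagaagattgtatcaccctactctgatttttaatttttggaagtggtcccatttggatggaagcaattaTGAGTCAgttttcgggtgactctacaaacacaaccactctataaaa
The motif was searched on both strands in 32536 RefSeq promoters of the same length and was present in 6.73% of them. It was present in 5 of the 76 genes that rose and had a promoter in the table (6.58%). A match in such a window is a description of its letters and not a sign that a factor was bound.

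Among matrix glycoproteins and collagens 1 gene passed. Tnc, or tenascin C, a glycoprotein of remodelled matrix, had 3.79, 9.65, 6.33 and 9.93 CPM in CTRL_IT and 40.1, 88.3, 80.9 and 18.4 CPM in NCTD_IT. The treated tumors were all above the controls, and Tnc rose by 2.93 (SE 0.57, edgeR adjusted p = 0.0301). It was the 1 member called of 36 tested, and none fell. The list had a median of 1.15 and 31 members above 0, with 18 higher and 1 lower at an unadjusted p below 0.05. Col1a1, the main chain of fibrillar collagen, had 65.2, 148, 132 and 219.8 CPM in CTRL_IT and 405, 966, 703 and 218 CPM in NCTD_IT, a value of 2.02 (SE 0.71, edgeR adjusted p = 0.118) that did not pass, and NCTD_IT 20 lay among the controls. Col5a3, a minor fibrillar collagen, had a value of 1.25 (edgeR adjusted p = 0.0692). The list of fibroblast markers shares Col1a1, Col1a2, Col3a1, Dcn, Lum and Postn with this list. Its values are therefore not independent of the matrix values. None of 8 tested markers passed, their median was 1.87, their summed level was 113 to 392 CPM in CTRL_IT and 413 to 1762 CPM in NCTD_IT, and their part in the matrix results was not tested. Dcn, or decorin, a proteoglycan that fibroblasts make, had 0.253, 10.7, 9.36 and 2.84 CPM in CTRL_IT and 21.8, 69.2, 49.6 and 9.98 CPM in NCTD_IT, a value of 2.66 (SE 0.84, edgeR adjusted p = 0.0864).

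Among genes of inflammation, the values of Cxcl2 and Il1b rested largely on a single tumor. Cxcl2, a chemokine that draws neutrophils, had 10.4, 17.1, 12.7 and 8.51 CPM in CTRL_IT and 43.4, 1268, 79.5 and 37.3 CPM in NCTD_IT. Every treated tumor was above every control, but NCTD_IT 18 held most of the difference, and the change of 4.86 (SE 1.04, edgeR adjusted p = 0.0363) became 2.13 without it (edgeR adjusted p = 0.121). Saa3, an acute phase serum amyloid, had 6.06, 17.1, 15.7 and 15.03 CPM in CTRL_IT and 30.6, 203, 184 and 19.96 CPM in NCTD_IT and rose by 3.01 (SE 0.68, edgeR adjusted p = 0.0423). With any 1 tumor left out its value was between 2.53 and 3.36 (edgeR adjusted p = 0.0296 to 0.145), and it passed in 1 of these 8 fits. Its level in MIX_IT was 208, 47.97, 134 and 128 CPM. Il1b, the gene of interleukin 1 beta, had 3.54, 44.5, 18.2 and 19.9 CPM in CTRL_IT and 22.6, 827, 42.7 and 45.7 CPM in NCTD_IT, overlapping groups with a value of 3.43 (edgeR adjusted p = 0.0745) that was 0.78 without NCTD_IT 18. Ccl3, a chemokine of macrophages, had a value of 2.75 (SE 0.72, edgeR adjusted p = 0.0579). Of the 38 tested cytokines, chemokines and members of the NF-kappa B system 2 rose, none fell and the median was 1.11, with 21 higher and 1 lower at an unadjusted p below 0.05.

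NCTD_IT 18 was also the highest tumor in genes of neutrophils. S100a8 and S100a9 encode the subunits of calprotectin, the most abundant protein pair of neutrophil cytosol. S100a9 had 2.27, 1.75, 3.54 and 0.284 CPM in CTRL_IT and 10.8, 757, 25.7 and 4.20 CPM in NCTD_IT, and S100a8 had 2.02, 1.32, 1.52 and 1.70 CPM in CTRL_IT and 8.71, 294, 15.96 and 4.20 CPM in NCTD_IT. The groups were separate for both genes, narrowly so in NCTD_IT 20, and the genes rose by 6.63 (SE 1.40, edgeR adjusted p = 0.0363) and 5.60 (SE 1.16, edgeR adjusted p = 0.0363). Without NCTD_IT 18 the changes were 2.76 and 2.53 and neither passed (edgeR adjusted p = 0.126 and 0.105). DESeq2 gave no adjusted p to Cxcl2, S100a8 or S100a9. S100a8 and S100a9 met the filter on low counts through tumors where they were high, so their calls are a description. The neutrophil list, of which 5 of 12 genes were tested and these 2 rose, summed to 6.06 to 12.5 CPM in CTRL_IT and to 31.0, 1124, 48.9 and 19.7 CPM in NCTD_IT, while the defining marker Ly6g was at 0 in all 8 tumors. The part of these cells in the inflammatory genes was not tested.

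The promoter of Cxcl2 is printed as the counterpart to that of Mmp3, 250 bases before the RefSeq start (GRCm38.p6, chr5:90903649-90903898, plus strand). Capitals mark matches to the NF-kappa B motif GGGNNNTTCC on either strand, which begin 97 and 96 bases before the start, where 2 matches overlap on opposite strands, and 78 bases before it.
Cxcl2: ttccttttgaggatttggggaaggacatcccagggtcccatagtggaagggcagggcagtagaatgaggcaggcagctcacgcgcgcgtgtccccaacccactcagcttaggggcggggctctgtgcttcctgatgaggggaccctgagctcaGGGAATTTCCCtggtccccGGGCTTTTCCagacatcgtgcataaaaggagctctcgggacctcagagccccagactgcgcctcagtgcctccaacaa
This motif was present in 4.65% of the 32536 promoters and in 5 of the 76 promoters of genes that rose (6.58%).

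Markers of other cells, given by the plot of summed marker levels, were mostly higher in NCTD_IT without passing. Emcn, the endothelial sialomucin endomucin, was the exception, with 8.09, 7.89, 7.59 and 5.96 CPM in CTRL_IT and 22.6, 21.1, 15.6 and 12.9 CPM in NCTD_IT, a rise of 1.29 (SE 0.29, edgeR adjusted p = 0.0414) and no overlap. It was the 1 of 12 tested endothelial markers that passed, and their median was 0.98, with sums of 112 to 172 CPM in CTRL_IT and 151 to 310 CPM in NCTD_IT. Pecam1, another endothelial adhesion molecule, had a value of 1.36 (edgeR adjusted p = 0.0887). No marker of T cells and NK cells (16 tested, median 1.70), of macrophages and monocytes (18 tested, median 0.86) or of dendritic cells (8 tested, median 1.59) passed in edgeR, and 3, 5 and 2 of them were higher and none lower at an unadjusted p below 0.05. Their summed levels overlapped between the groups, with 9.85 to 362 against 85.7 to 694 CPM for T and NK cells, 1640.4 to 3135 against 1584 to 4658 CPM for macrophages and 74.3 to 3419 against 1033 to 6596 CPM for dendritic cells. Cd14, a monocyte receptor, had 3.28, 6.58, 3.04 and 3.12 CPM in CTRL_IT and 2.44, 92.7, 3.47 and 5.25 CPM in NCTD_IT, where NCTD_IT 18 alone stood apart, and a value of 2.67 (edgeR adjusted p = 0.14). B cells (3 tested, median 1.78), pericytes (7 tested, median 0.73), keratinocytes (2 tested, median 0.75), adipocytes (3 tested, median 1.14), skeletal muscle (5 tested, median 2.51) and Schwann cells (4 tested, median -0.13) had 0 markers past the edgeR threshold, with 2, 2, 0, 1, 1 and 0 higher and none lower at an unadjusted p below 0.05. The sum of the skeletal muscle markers was 13.1, 360, 31.6 and 36.8 CPM in NCTD_IT, with NCTD_IT 18 far above the others, and 9.35 to 58.3 CPM in CTRL_IT. No mast cell marker had enough reads to be tested. The part of any of these cells in the other results was not tested. Erythroid genes ran in the opposite direction without passing, with a median of -1.77 over 4 tested genes and summed levels of 1239 to 6814 CPM in CTRL_IT and 258 to 1358 CPM in NCTD_IT. Hbb-bs, a beta globin, had 4632, 860.0, 1195 and 2086 CPM in CTRL_IT and 150.4, 856, 629.5 and 231 CPM in NCTD_IT, ranges that nearly touched, and a value of -2.23 (SE 0.82, edgeR adjusted p = 0.136).

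**Figure D2:**
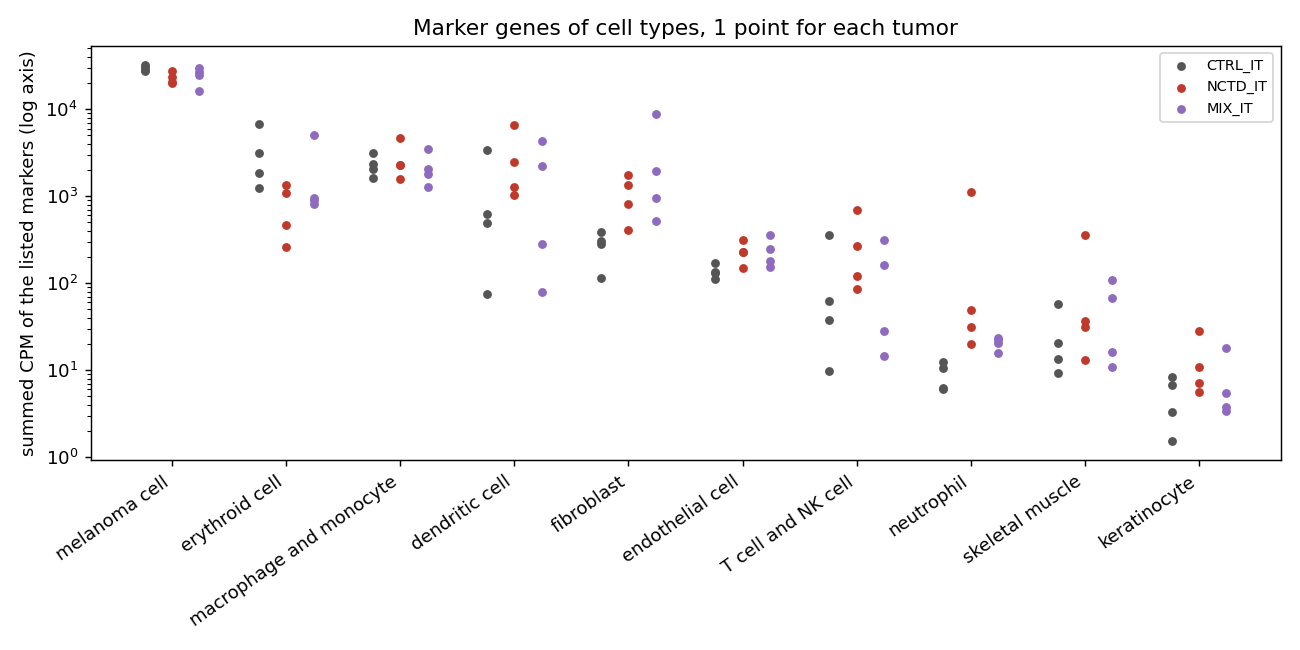
The summed CPM of the marker lists of 10 cell types (log axis) is shown with 1 point for each tumor of CTRL_IT, NCTD_IT and MIX_IT. Neutrophil markers of NCTD_IT 18 reach 1124 CPM, far from the other tumors, whereas sums of fibroblast markers in NCTD_IT (413 to 1762 CPM) lie above those of CTRL_IT (113 to 392 CPM).

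Signaling and stress genes gave single calls. Il17ra, the receptor chain shared by interleukin 17 cytokines, had 23.5, 28.9, 23.5 and 22.4 CPM in CTRL_IT and 62.5, 64.8, 58.3 and 54.1 CPM in NCTD_IT and rose by 1.28 (SE 0.22, edgeR adjusted p = 0.028). Ern1 encodes IRE1 alpha, a sensor of unfolded proteins in the endoplasmic reticulum, and had 15.9, 25.2, 18.2 and 18.4 CPM in CTRL_IT and 47.4, 53.7, 29.1 and 55.95 CPM in NCTD_IT, a rise of 1.26 (SE 0.23, edgeR adjusted p = 0.028). Hspa5, the chaperone BiP of the same compartment, had 1042, 952, 853 and 798 CPM in CTRL_IT and 1444, 1978, 1735 and 1055 CPM in NCTD_IT and rose by 0.77 (SE 0.18, edgeR adjusted p = 0.0482), and the lowest treated tumor was barely above the highest control. These were the 2 calls among 38 genes of the endoplasmic reticulum and integrated stress response, whose median was 0.05, with 9 higher and 5 lower at an unadjusted p below 0.05. The chaperone gene Hsp90b1 had a value of 0.90 (edgeR adjusted p = 0.0514). Ralb, a small GTPase close to Ras, rose by 0.90 (SE 0.16, edgeR adjusted p = 0.028), from 102, 99.5, 76.4 and 91.6 CPM to 165, 169, 181 and 172 CPM, and Slc23a2, a vitamin C transporter, rose by 1.25 (SE 0.22, edgeR adjusted p = 0.028).

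Among p53 targets 1 of 24 passed. Mdm2, the ubiquitin ligase that holds p53 down, had 93.7, 112, 95.9 and 95.3 CPM in CTRL_IT and 165, 192, 166 and 175 CPM in NCTD_IT, and the separate groups gave a rise of 0.81 (SE 0.19, edgeR adjusted p = 0.0467) in a list whose median was 0.11. Of 32 immediate early genes Ier2 rose by 0.83 (SE 0.20, edgeR adjusted p = 0.0487), and the median was 0.73, with 13 higher and 1 lower at an unadjusted p below 0.05. Egr1, a transcription factor of this response, had 3.28, 10.3, 8.10 and 4.25 CPM in CTRL_IT and 23.3, 35.8, 12.5 and 28.9 CPM in NCTD_IT, a value of 1.94 (edgeR adjusted p = 0.0542). Of 36 genes of the PI3K, AKT and mTOR pathway 2 rose and 1 fell around a median of 0.03. Fnip2, a partner of folliculin in nutrient sensing, rose by 1.15 (SE 0.23, edgeR adjusted p = 0.0334), and Rictor, the defining subunit of mTOR complex 2, by 0.75 (SE 0.17, edgeR adjusted p = 0.0414). Eif4ebp1, the repressor of cap-dependent translation that mTOR complex 1 phosphorylates, had 187, 120.1, 112 and 148 CPM in CTRL_IT and 65.3, 95.01, 89.9 and 62.5 CPM in NCTD_IT and fell by 0.86 (SE 0.19, edgeR adjusted p = 0.0414).

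On a further list of 8 genes, Mitf alone passed. The list holds genes of proteins that the study stained in tumors. The paper names no subunit for the stained PI3K, and Pik3ca, Pik3cb and Pik3r1 were listed for it. The MITF staining is described for tumors treated by the peritoneal route, whereas the RNA values here come from intratumoral groups. RNA and protein were therefore not compared. Mitf (chromosome 6, 97784013 to 97998310) is the master transcription factor of the melanocyte lineage, and it had 738, 698, 817 and 1026 CPM in CTRL_IT and 429, 339, 598 and 435 CPM in NCTD_IT. Every treated tumor was below every control, and Mitf fell by 0.86 on the log2 scale (SE 0.18, edgeR adjusted p = 0.0363). MIX_IT had 329.9, 376, 340.3 and 358 CPM. The receptor gene Erbb2 had a value of 0.50 (SE 0.64) and the kinase gene Braf a value of 0.46 (SE 0.24). Pik3ca, Pik3cb and Pik3r1, which encode catalytic and regulatory subunits of PI3K, had values of -0.09 (SE 0.18), 0.40 (SE 0.26) and 0.41 (SE 0.36). Akt1 had a value of -0.36 (SE 0.33) and Mtor one of 0.03 (SE 0.21). None of these 7 passed in edgeR (adjusted p from 0.285 to 0.952).

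Other pigment genes did not pass. Of 22 tested members of the melanocyte list Mitf alone passed, the median was -0.12, and 1 was higher and 5 were lower at an unadjusted p below 0.05. The 1 that was higher was Mc1r, the melanocortin receptor, with 516, 495, 498 and 426 CPM in CTRL_IT and 692, 841, 781 and 599 CPM in NCTD_IT, a value of 0.59 (SE 0.17, edgeR adjusted p = 0.0701) with separate groups. Dct, an enzyme of melanin synthesis, had a value of -0.46 (edgeR adjusted p = 0.166) and Gpnmb, a melanosome glycoprotein, one of -0.50 (edgeR adjusted p = 0.118). Of the 24 genes of phosphatases that bind norcantharidin, and of their regulators, none passed in edgeR, and DESeq2 called 2. Their median was -0.10, and 3 of the 24 were lower and none higher at an unadjusted edgeR p below 0.05. Over all genes tested 9.98% were lower and 11.7% higher at this threshold, so the 3 lower genes are near the common share.

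Ribosomal protein genes had values below 0 nearly throughout, and 2 of them passed. Rpl29 (chromosome 9, 106306653 to 106308767), a protein of the large subunit, had 480.3, 336, 419.9 and 436 CPM in CTRL_IT and 212, 150.4, 188 and 171 CPM in NCTD_IT. The groups were separate and Rpl29 fell by 1.21 (SE 0.25, edgeR adjusted p = 0.0363). Rpl10a had 496, 359, 425 and 490.1 CPM in CTRL_IT and 258, 176, 192 and 191 CPM in NCTD_IT and fell by 1.12 (SE 0.24, edgeR adjusted p = 0.0363). Of 75 tested members these 2 fell and none rose, while 67 of the 75 had a value below 0 and the median was -0.44. At an unadjusted p below 0.05, 44 were lower and 2 higher. Rpl19, also of the large subunit, had a value of -1.17 (SE 0.28, edgeR adjusted p = 0.0522). As a share of all counts, messenger RNA of ribosomal proteins took 8.79% to 10.6% in CTRL_IT and 6.77% to 8.56% in NCTD_IT. Translation factors had a median of -0.32 over 46 members, of which Eif4ebp1 alone passed, with 19 lower and 1 higher at an unadjusted p below 0.05. Many of these genes have pseudogene copies, and how reads that align to several places were treated is not given in the sources used here.

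Genes of the respiratory chain split by genome. The nuclear list had 76 tested members, of which 3 fell, none rose and the median was -0.44. Ndufb6, a subunit of complex I, had 43.7, 41.2, 45.8 and 36.6 CPM in CTRL_IT and 23.3, 15.8, 21.5 and 17.3 CPM in NCTD_IT and fell by 1.10 (SE 0.25, edgeR adjusted p = 0.0414), with no overlap. Atp5h, of the stalk of ATP synthase, fell by 0.83 (SE 0.20, edgeR adjusted p = 0.0487), and Ndufb5, also of complex I, by 0.69 (SE 0.16, edgeR adjusted p = 0.0491). At an unadjusted p below 0.05, 40 nuclear members were lower and 1 was higher. All 13 protein-coding genes of the mitochondrial genome had values above 0, with a median of 0.71. The 1 that passed was mt-Cytb, of complex III, which had 8142, 7405, 6020.3 and 6621 CPM in CTRL_IT and 19438, 21727, 8232 and 12564 CPM in NCTD_IT, a rise of 1.14 (SE 0.26, edgeR adjusted p = 0.0444). NCTD_IT 19 was just above the highest control and the other 3 were well above it. The complex IV subunit mt-Co1 had a value of 0.97 (SE 0.25, edgeR adjusted p = 0.0565). The mitochondrial ribosomal RNAs mt-Rnr1 and mt-Rnr2, chosen after their values were seen, rose by 1.10 (SE 0.26, edgeR adjusted p = 0.0487) and 1.33 (SE 0.31, edgeR adjusted p = 0.0487). Mitochondrial genes together took 2.42% to 2.68% of the counts in CTRL_IT and 5.96%, 6.32%, 2.47% and 4.18% in NCTD_IT, so that NCTD_IT 19 was within the range of the controls.

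Further energy genes were lower without passing. None of 24 glycolysis genes passed in edgeR, the median was -0.52, and 12 were lower and 2 higher at an unadjusted p below 0.05. Gapdh had 308, 359, 358 and 399 CPM in CTRL_IT and 118, 117, 197 and 165 CPM in NCTD_IT, separate groups with a value of -1.26 (SE 0.36, edgeR adjusted p = 0.0695). Gpi1, Ldhb and Eno1, enzymes of the same pathway, had values of -0.68, -1.02 and -1.19 (edgeR adjusted p = 0.0542, 0.0565 and 0.0661). DESeq2 called 11 of the 24.

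The actin cytoskeleton held calls in both directions. Mical3 (chromosome 6, 120908668 to 121107959), a monooxygenase that acts on actin filaments and vesicles, had 59.9, 64.9, 75.7 and 64.1 CPM in CTRL_IT and 142, 132, 125 and 127 CPM in NCTD_IT. All treated tumors lay near a value that no control reached, and Mical3 rose by 0.99 (SE 0.16, edgeR adjusted p = 0.028). Arpc1a, a subunit of the ARP2/3 complex, rose by 0.98 and Cttn, or cortactin, by 0.68. Actn4, the crosslinker alpha-actinin 4, had 104, 99.5, 92.9 and 72.3 CPM in CTRL_IT and 34.3, 35.8, 29.1 and 35.2 CPM in NCTD_IT, with a wide gap between the groups, and fell by 1.45 (SE 0.30, edgeR adjusted p = 0.0363). Wipf3 (chromosome 6, 54406588 to 54480753), which binds proteins of the WASP family, had 29.8, 22.1, 26.1 and 27.5 CPM in CTRL_IT and 4.88, 3.23, 7.98 and 4.47 CPM in NCTD_IT and fell by 2.37 (SE 0.44, edgeR adjusted p = 0.028), the steepest called fall apart from Cfap77. The list of 41 tested actin and adhesion genes, which holds neither Mical3 nor Wipf3, had 3 members that rose, 1 that fell and a median of -0.05.

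Other genes that fell with a small p act in transport and protein turnover. Dynlt1b, a dynein light chain with near-identical neighbours in the genome whose reads may be shared, had 50.8, 45.6, 44.8 and 41.4 CPM in CTRL_IT and 19.5, 17.6, 20.5 and 23.9 CPM in NCTD_IT and fell by 1.16 (SE 0.21, edgeR adjusted p = 0.028). Dnai1, an intermediate chain of the dynein of cilia, fell by 1.09, and Fez1, an adaptor of kinesin, by 1.44. Psma6, a core subunit of the proteasome, had 259, 246, 232 and 281 CPM in CTRL_IT and 122, 62.5, 117 and 112 CPM in NCTD_IT and fell by 1.30 (SE 0.27, edgeR adjusted p = 0.0363). Timm8b, a chaperone between the mitochondrial membranes, fell by 1.05, Ctnnal1, related to alpha-catenin, by 1.26 and Mtmr2, a phosphoinositide phosphatase, by 0.82, and in each of them both groups were separate.

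**Figure D3:**
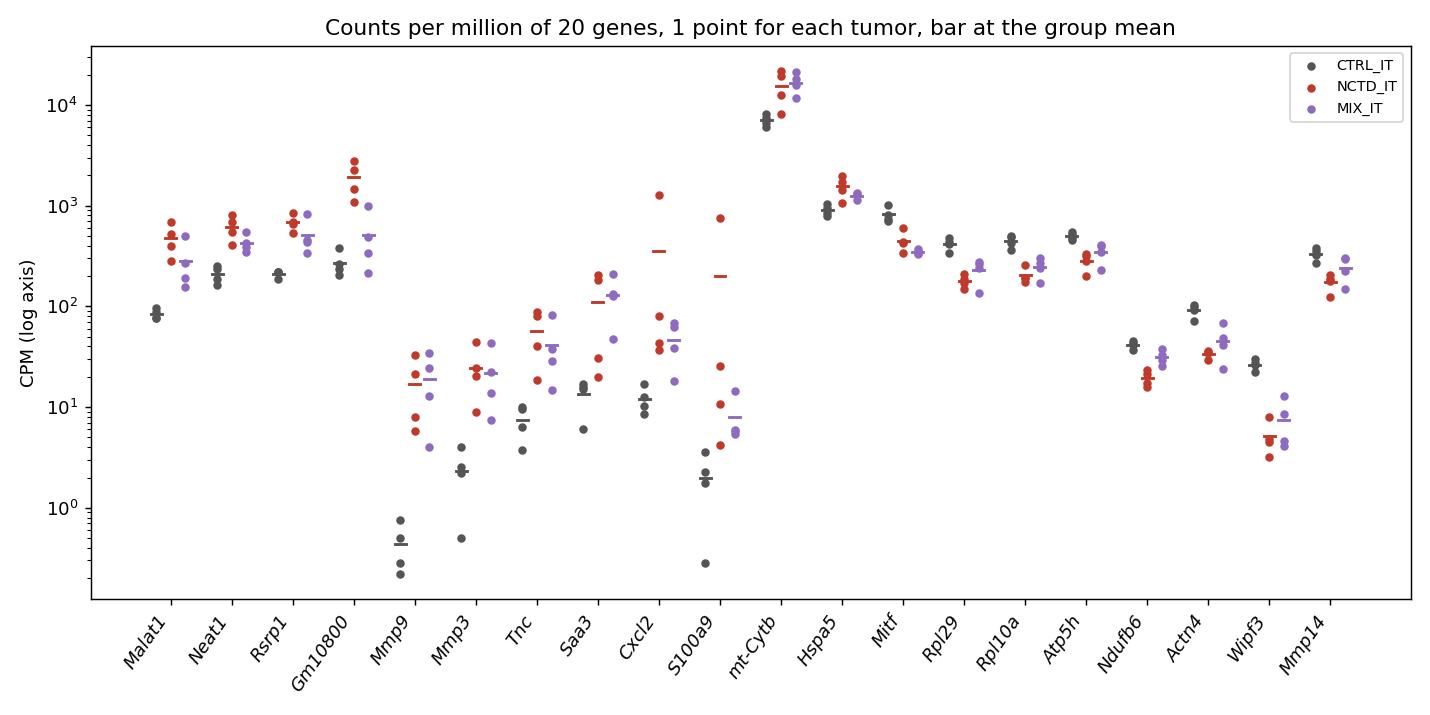
CPM of 20 named genes is plotted on a log axis, with 1 point for each tumor of CTRL_IT, NCTD_IT and MIX_IT and a bar at the mean of each group. NCTD_IT lies above CTRL_IT from Malat1 to Hspa5 and below it from Mitf to Mmp14, and Cxcl2 and S100a9 show the single high tumor NCTD_IT 18.

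Several other programs gave no call. The interferon response (44 genes, median 0.27), antigen presentation by MHC class I (21 genes, median 0.69), hypoxia (20 genes, median -0.25), S phase (28 genes, median -0.22), mitosis (29 genes, median -0.30), heat shock proteins (22 genes, median -0.19), cholesterol synthesis (28 genes, median -0.31), NRF2 targets and glutathione enzymes (36 genes, median -0.21), the BCL2 family and caspases (30 genes, median 0.20), the circadian clock (18 genes, median 0.11) and the ERBB, RAF and MAPK pathway (34 genes, median 0.03) had 0 members past the edgeR threshold. Over all genes tested, 11.7% were higher and 9.98% lower at an unadjusted edgeR p below 0.05. At this threshold NRF2 targets had 2 higher and 8 lower members and cholesterol synthesis 0 and 7. Hypoxia had 2 higher and 5 lower and mitosis 0 and 5. Heat shock proteins (0 higher, 2 lower), S phase (1 higher, 2 lower) and MHC class I (0 higher, 1 lower) did not exceed the shares over all genes. In MHC class I, 19 of 21 tested members had a value above 0 and 2 had one below. The BCL2 family and caspases had 5 higher and 0 lower and the clock 4 and 0. The ERBB, RAF and MAPK pathway had 4 and 4 and the interferon response 1 and 1. DESeq2 called 31 members over these 11 lists together.

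**Figure D4:**
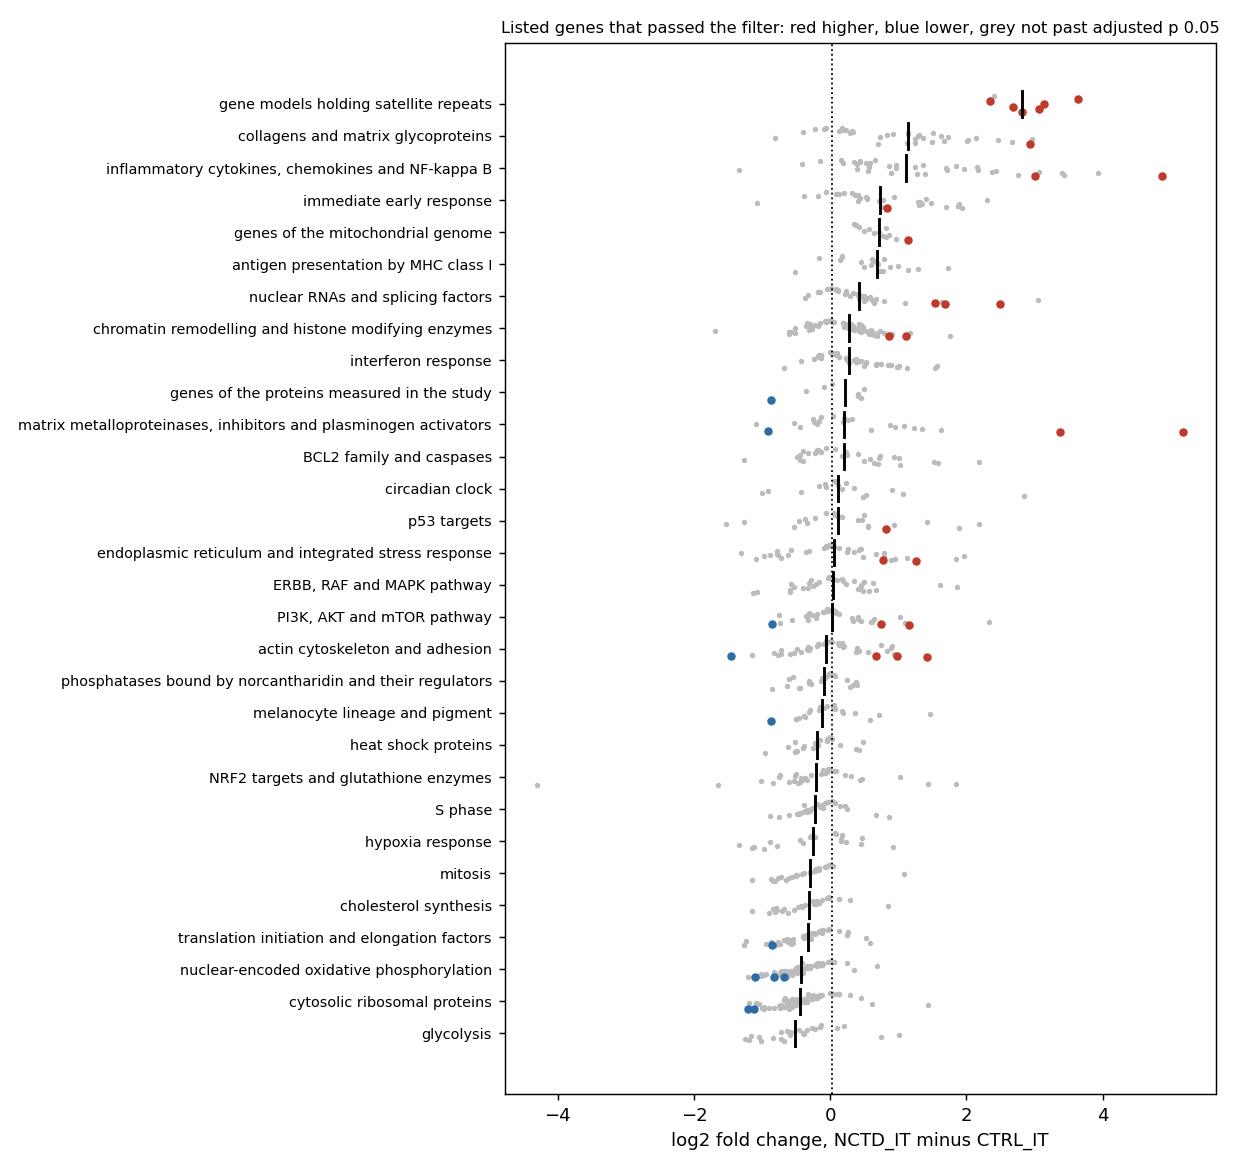
Log2 fold changes between NCTD_IT and CTRL_IT of the tested members of each list are shown as points, with the list median as a bar and the median of all genes (0.03) as a dotted line. Red and blue points passed the edgeR threshold, and the medians run from -0.52 for glycolysis to 2.82 for the satellite models.

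The changes varied with gene length, as the table gives it for each gene. Of 10777 tested protein-coding genes, the shortest decile had a median change of -0.20 and the longest decile 0.23, and the medians rose through every decile between them. Among the 1078 genes of the longest decile 29 rose and none fell in edgeR, while 10 rose and 13 fell among the 1078 of the shortest. Over these genes Spearman's rho of length and change was 0.202, a description across genes that share the same tumors. The median length was 6476 bases for the genes that rose, 2398.5 for those that fell and 4326.5 for all genes tested, and GC content differed less, with medians of 47.7%, 50.1% and 48.8%. Each NCTD_IT tumor showed the slope against the mean of the controls. Medians of the shortest decile were -0.21, -0.36, -0.23 and -0.20, and those of the longest decile were 0.19, 0.28, 0.14 and 0.19. The controls stayed between -0.05 and 0.02, but each is part of the mean it was set against, which keeps it near that mean. Against the same controls the shortest and longest deciles had medians of -0.14 and 0.14 in MIX_IT and -0.12 and 0.16 in PTX_IT, and by the peritoneal route the order was turned, with 0.09 and -0.12 in NCTD_IP. The part of length in the ribosomal, respiratory and chromatin lists was not tested.

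**Figure D5:**
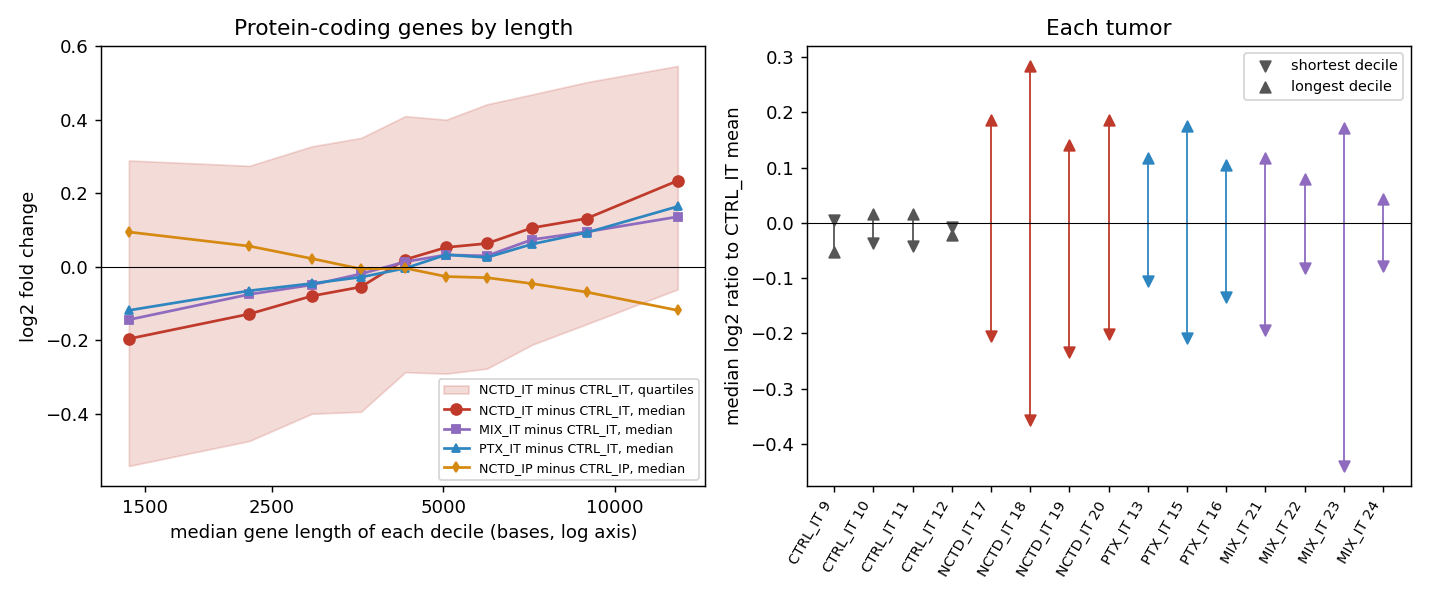
The left panel gives the median log2 fold change of protein-coding genes in deciles of gene length (x axis in bases, log axis), for NCTD_IT, MIX_IT and PTX_IT against CTRL_IT and for NCTD_IP against CTRL_IP, with the quartiles of NCTD_IT shaded. The right panel gives, for each tumor, the median log2 ratio to the CTRL_IT mean in the shortest and the longest decile. All 4 NCTD_IT tumors are wider apart than any CTRL_IT tumor, each of which is part of that mean.

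A comparison with the peritoneal route asked whether the same genes moved when norcantharidin reached the tumor through the body. NCTD_IP and CTRL_IP had 2 tumors each and share no tumor with the groups above. They differ from those groups in the vehicle as well as the route. Xist had 0 and 55 counts in CTRL_IP and 0 and 0 in NCTD_IP, and Ddx3y had 29 and 3 against 26 and 59. Host sex may thus also differ among these tumors, and its part in the peritoneal and route comparisons was not tested. Of the 113 genes that rose, 111 were tested by the peritoneal route and 58 were higher in NCTD_IP (52.3%), with a median of 0.03. Of the 54 that fell, 53 were tested and 34 were higher in NCTD_IP (64.2%), with a median of 0.09. Over all 11662 genes tested by both routes 49.1% were higher and the median was -0.01. No gene passed by this route in edgeR and 434 of 12019 had an unadjusted p below 0.05 (3.61%). Malat1 had a value of -0.05 by this route, Mmp3 one of -2.02, Rpl29 one of 0.07, Wipf3 one of 0.48 and Mitf one of -0.70. The difference between the routes itself was tested in all 23 tumors, and 0 of 12959 genes passed in edgeR (0.0%), with 1405 at an unadjusted p below 0.05 (10.8%), while DESeq2 called 75. For Mmp3 the difference was 5.40 (SE 1.41, edgeR adjusted p = 0.271), for Wipf3 it was -2.85 (SE 0.66, edgeR adjusted p = 0.263) and for Ino80d it was 1.84 (SE 0.37, edgeR adjusted p = 0.206). Such genes were called on the same NCTD_IT and CTRL_IT tumors, so their differences between routes are partly built in.

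The combination held norcantharidin at the same dose, and the tumors of MIX_IT were compared with those of NCTD_IT directly. In edgeR 0 of 12066 genes passed (0.0%), and the smallest adjusted p was 0.096. At an unadjusted edgeR p below 0.05 there were 724 genes (6.0%), and DESeq2 called 8. Xist counts were 0 in every MIX_IT tumor and 32, 44, 15 and 51 in NCTD_IT. Host sex and the added pentoxifylline therefore cannot be told apart in this comparison. Among the 113 genes that rose 26 had an unadjusted p below 0.05 in this comparison, and among the 54 that fell 21 had one. Set against the shared CTRL_IT tumors, the genes that rose in NCTD_IT had a median change of 1.09 in NCTD_IT, 0.84 in MIX_IT and 0.64 in PTX_IT, and the genes that fell had medians of -0.997, -0.61 and -0.51. Medians over all genes were 0.03, 0.01 and 0.02. The called genes were chosen for a large change in NCTD_IT, so smaller medians in MIX_IT and PTX_IT are partly built in. The counts of 26 and 21 rest on the same NCTD_IT tumors that served to call the genes. Mical3 had 86.9, 102, 92.5 and 96.2 CPM in MIX_IT, each below the lowest NCTD_IT tumor, with a difference of -0.48 (SE 0.16, unadjusted p = 0.00896, edgeR adjusted p = 0.803). Mitf had a difference of -0.36 (SE 0.18, edgeR adjusted p = 0.813) and Mmp9 one of 0.15 (SE 0.66, edgeR adjusted p = 0.968).

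A few genes with steep values outside these groups were chosen after their values were seen. Ftl1, the light chain of the iron store ferritin, had 64.7, 46.7, 28.6 and 59.3 CPM in CTRL_IT and 33.4, 1988, 342 and 4659 CPM in NCTD_IT, a called rise of 5.14 (SE 1.00, edgeR adjusted p = 0.03) in which NCTD_IT 17 lay among the controls. Without NCTD_IT 20 the value was 3.98. The pseudogene Ftl1-ps1 had 48.8, 41.7, 45.8 and 73.2 CPM in CTRL_IT and 39.7, 24.9, 65.2 and 27.1 CPM in NCTD_IT. Fth1, the heavy chain of ferritin, had 2892, 2406, 2133 and 2658 CPM in CTRL_IT and 1147, 1122, 946 and 1636 CPM in NCTD_IT. How reads with several alignments were counted is not given, and their part in the Ftl1 values was not tested. Podn, a proteoglycan of the matrix, had no count in CTRL_IT and 4.18, 3.23, 2.78 and 1.05 CPM in NCTD_IT (edgeR adjusted p = 0.0414), above the floor in every treated tumor and near it in NCTD_IT 20. Cfap77, a protein of cilia, had 13.6, 0.438, 17.7 and 3.40 CPM in CTRL_IT and no count in NCTD_IT. Podn and Cfap77 met the filter on low counts through tumors where they were high, so their calls are a description. Gstp1, a glutathione transferase, had 161, 99.3, 2254 and 2607 CPM in CTRL_IT and 70.2, 47.8, 50.3 and 89.8 CPM in NCTD_IT, a value of -4.31 (edgeR adjusted p = 0.0556). Gstp-ps is a pseudogene copy of it, and the sum of both was 2203, 373, 2496 and 3123 CPM in CTRL_IT and 1854, 1734, 2276 and 2956 CPM in NCTD_IT, groups that overlapped.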

How the data were processed

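RNA of 23 tumors was read with a 3′ mRNA library kit that primes on poly(A), and whole-number counts per gene were deposited by the authors in 1 table, with trimming by Trimmomatic, FastQC checks and alignment to GRCm39 with STAR 2.7.11b per the submitters' processing notes. Genes were quantified with STAR as well. The strand column used and the treatment of reads with several alignments are not given in the sources used here. Groups came from the sample titles. The 8 tumors of both groups had between 2861578 and 5711770 counts each, with a floor of 3 counts.

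The counts of all 15 intratumoral tumors were fitted in 1 model of 4 groups with edgeR 4.0.16 (limma 3.58.1, R 4.3.3) after TMM scaling and filterByExpr (min.count 10, min.total.count 15). The two-sided quasi-likelihood test was adjusted by Benjamini-Hochberg over every gene tested, X and Y genes included, and genes with an adjusted p below 0.05 outside X and Y were called. The SE of a change is its absolute log2 value divided by the square root of the F statistic of the test. CPM values are counts scaled to the library total of the filtered genes times its TMM factor, while the floor was scaled to the raw total. The difference between routes came from 1 fit of all 23 tumors, and the peritoneal change from the peritoneal tumors. DESeq2 1.42.0 was run as an alternative, beside other scaling, no filter, other sets of tumors and genes, Xist (log2 CPM) as a covariate and each tumor left out. Nothing says more of the tumors than that each is a separate sample, so p-values measure the spread between tumors. The scripts were tested on simulated data.

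Named genes were the 12 with the smallest p in each direction without predicted models and pseudogenes, called and leading members of each list, genes of the measured proteins, the satellite models and Malat1, and the text describes the members on which its results turn. Some genes that the rule selects are not reported here. The members and lists were chosen with earlier results of these data known. Sequences came from GRCm39 for the satellite model and from RefSeq promoters of GRCm38.p6. Tables and figures were made with Python 3.11.15 (pandas 2.3.3, numpy 2.4.6, scipy 1.17.1, matplotlib 3.10.9).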

Additional observations from a re-analysis of the deposited data

Results flagged for a closer look

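In 12 of 168 pairs of a named gene and a group, 1 tumor lay farther from the other 3 than Dixon's 95% limit for 4 samples, and chance gives about 1 in 20. NCTD_IT 18 was that tumor in 8 of them. It had 1268 CPM of Cxcl2, 827 CPM of Il1b, 757 CPM of S100a9, 294 CPM of S100a8 and 92.7 CPM of Cd14, each above the other NCTD_IT tumors, and 66.9 CPM of Ino80d on the same side. It stood lower than the others with 62.5 CPM of Psma6 and 287 CPM of Ndufb5. NCTD_IT 19 stood apart with 549 CPM of mt-Rnr1. Among the controls, CTRL_IT 9 stood apart with 186 CPM of Rsrp1, and CTRL_IT 10 with 112 CPM of Mdm2 and 6.58 CPM of Cd14.

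Xist, which is outside the genes described, reached 51 counts in NCTD_IT and at most 2 counts in CTRL_IT.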

How the results depend on the processing

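The number of genes that passed (167, with 113 higher and 54 lower) was 162 (110 and 52) with DESeq2 size factors, 168 (114 and 54) without X and Y genes in the fit and 146 (100 and 46) with protein-coding genes alone. It was 1335 (750 and 585) with DESeq2, 1154 (751 and 403) with no filter, 916 (513 and 403) with the 8 tumors alone, 746 (377 and 369) with all 23 tumors and 0 with Xist as a covariate. Leaving out 1 tumor gave 0 to 185 genes, 0 to 126 higher and 0 to 59 lower. The difference between routes, 0 genes, was 75 with DESeq2, 274 with no filter and 0 to 0 with 1 tumor left out. The difference between MIX_IT and NCTD_IT, 0 genes, was 8 with DESeq2, 182 with no filter and 0 to 1 with 1 tumor left out, the 1 without NCTD_IT 17 or MIX_IT 23. With Xist as a covariate 52 of the 84 named genes lost their call without a change of sign and 11 changed sign, to -0.30 for Malat1, -0.29 for Neat1, -0.17 for mt-Rnr1, -0.11 for mt-Rnr2, -0.40 for Ccl3, -0.17 for Egr1, 1.12 for Hbb-bs, -0.93 for Pik3cb, -1.25 for Pik3r1, 0.47 for Akt1 and -0.20 for Mtor. With 1 tumor left out, Cd14 ranged from -0.11 (without NCTD_IT 18) to 3.08, Pik3ca from -0.19 to 0.033 (without NCTD_IT 19) and Mtor from -0.064 (without CTRL_IT 11) to 0.22, and it was also below 0 without CTRL_IT 10 or NCTD_IT 20. The causes were not tested, and the Xist covariate, which splits CTRL_IT from NCTD_IT, cannot tell host sex and treatment apart. No other named gene changed sign under these alternatives. No paired analysis was possible because no replicate number is shared between groups. Depth limits genes near the floor of 3 counts, such as Mmp9 in the controls.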
